A study of Homo sapiens with 3 samples.

Results

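The 35 genes described here encode aminoacyl-tRNA synthetases, 19 of the cytosolic set and 16 of the mitochondrial set, out of 58884 genes in a read count table from LNCaP cells. Members were taken by gene name, and the mitochondrial set is every member whose name ends in 2. LNCaP is an established, androgen-responsive human prostate cancer cell line. After 24 h in complete medium, LNCaP cells were kept for 72 h in medium holding 2% fetal bovine serum and 50% conditioned medium (CM). The CM was control-CM, PPAT-CM (marked as tumor) or PVAT-CM (marked as normal), where PPAT is periprostatic adipose tissue and PVAT is not spelled out in the labels. Each medium was represented by 1 polyadenylated RNA library, so the comparisons are between libraries, without replicate error and without a test. The number of donors behind each CM is not given in the sources used here.

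Aminoacyl-tRNA synthetases join each amino acid to its tRNA, the step that supplies charged tRNAs to the ribosome. Separate nuclear genes usually serve the cytosol and the mitochondrion, although GARS1 and KARS1 each encode the enzyme of both compartments. EPRS1 carries the glutamate and the proline enzyme in one protein, and FARSA and FARSB are the subunits of the cytosolic phenylalanine enzyme. Many cytosolic synthetase genes are known targets of ATF4, the transcription factor of the integrated stress response, and WARS1 is also induced by interferon-gamma.

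Total counts were 16534649 under control-CM, 14174241 under PVAT-CM and 16965584 under PPAT-CM. Genes of the mitochondrial chromosome took 30.8%, 21.1% and 15.5% of those counts. For this reason counts were scaled by edgeR's trimmed mean of M-values (TMM) factors, and levels are given as scaled CPM (counts per 1000000). A gene was kept at a mean of at least 50 counts, which 12256 genes and 34 of the 35 synthetases met. SARS2, the mitochondrial serine enzyme, did not, with 40, 46 and 56 counts under control-CM, PVAT-CM and PPAT-CM, and 46.2% of its exonic bases are shared with another annotated gene on the same strand. Prostate markers were present, with KLK3 (prostate-specific antigen) at 10286, 9982 and 4577 counts in the same order. Adipocyte markers ADIPOQ, FABP4 and LEP were at 0 in every library, while PLIN1, a lipid droplet protein of adipocytes, had 13, 27 and 89 counts and CIDEC 0, 0 and 1. The summed adipocyte list was thus 0.857, 1.89 and 4.89 scaled CPM, and its part in the ratios below was not tested. Leukocyte markers summed to 11, 17 and 10 counts, with PTPRC and CD3E at 0, endothelial markers to 27, 16 and 35, with CDH5 at 0, and fibroblast markers to 783, 367 and 531, mostly COL1A1, with DCN at 0.

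The cytosolic synthetases were together higher in PVAT-CM than in the other 2 libraries. Their summed level was 3063 scaled CPM under control-CM, 3796 under PVAT-CM and 3302 under PPAT-CM. The PVAT-CM sum was 1.24 times the control sum (95% counting interval 1.22 to 1.25), and the PPAT-CM sum was 0.870 times the PVAT-CM sum (0.860 to 0.880). The mitochondrial synthetases summed to 407, 439 and 441 scaled CPM, 1.08 times control in PVAT-CM (1.04 to 1.12) and 1.08 times in PPAT-CM (1.05 to 1.12). Of all synthetase counts, the mitochondrial set held 11.7% under control-CM (exact binomial interval 11.4% to 12.0%), 10.4% under PVAT-CM (10.1% to 10.6%) and 11.8% under PPAT-CM (11.5% to 12.0%). These intervals, and those below, cover counting error only, and differences between cultures of 1 medium are not in them. In bulk RNA, fewer cells with a transcript and less of it per cell cannot be told apart.

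Gene by gene, 12 of the 19 cytosolic synthetases had their highest level in PVAT-CM, 7 in PPAT-CM and 0 in control-CM. The 12 were AARS1, CARS1, EPRS1, FARSA, FARSB, GARS1, IARS1, KARS1, LARS1, MARS1, NARS1 and TARS1. The 7 were HARS1, QARS1, RARS1, SARS1, VARS1, WARS1 and YARS1. Of the 15 mitochondrial genes kept, 7 were highest in PVAT-CM, 4 in PPAT-CM (EARS2, FARS2, NARS2 and YARS2) and 4 in control-CM (AARS2, CARS2, HARS2 and VARS2). Control-CM was the lowest library for 13 cytosolic and 10 mitochondrial genes. How all genes kept divide by highest or lowest library was not counted, so these numbers have no share beside them. KARS1 was all but tied, at 0.999 times PVAT-CM in PPAT-CM. Under other scalings the order of PPAT-CM and PVAT-CM turned for KARS1, YARS1, IARS2, LARS2, PARS2, RARS2, TARS2 and VARS2, and the side of control-CM turned for FARSB, HARS1, LARS1, MARS1, QARS1, VARS1, AARS2, HARS2, NARS2, TARS2 and VARS2 in at least 1 comparison.

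**Figure D1:**
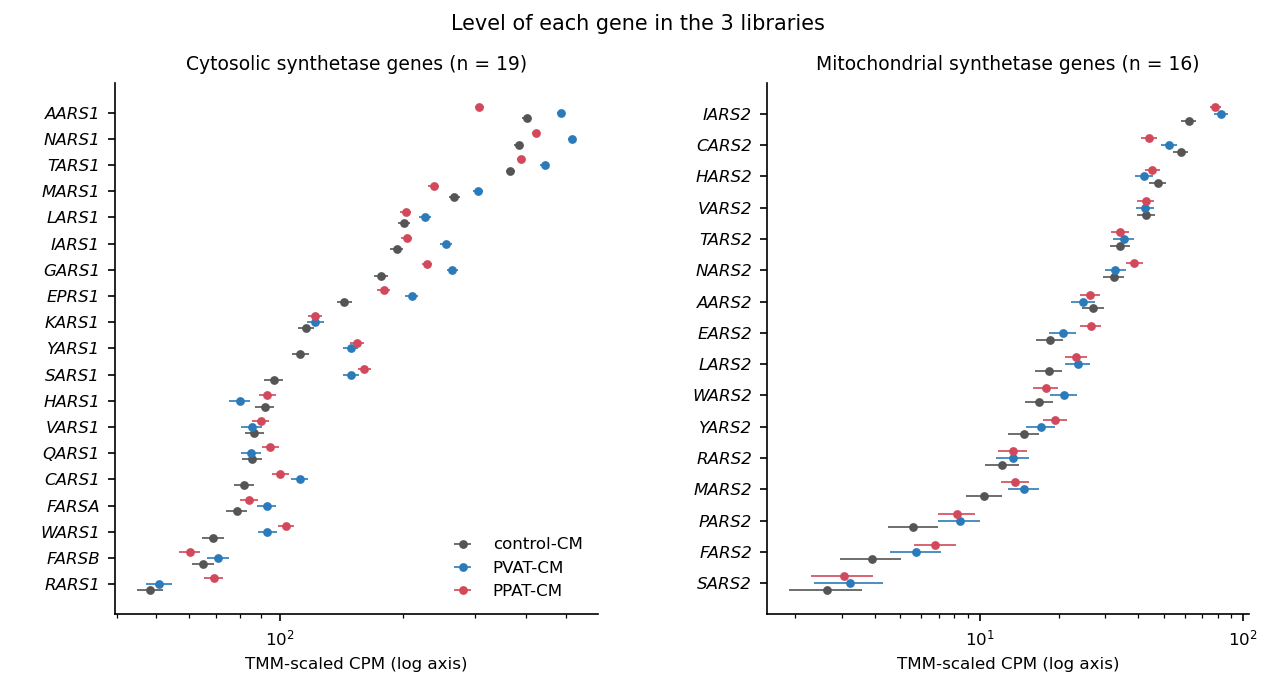
Level of each synthetase gene in TMM-scaled CPM (log axis) under control-CM, PVAT-CM and PPAT-CM, 1 library each, with 95% Poisson intervals for counting error. Cytosolic genes are in one panel and mitochondrial genes in the other, and most cytosolic genes have their highest point in PVAT-CM.

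In PVAT-CM against control-CM, 16 of 19 cytosolic synthetases had a ratio above 1 (84.2%, against 53.1% of all genes kept), with a median log2 ratio of 0.28 against 0.02 over all genes. The differences were small. Only SARS1 was at least 1.5-fold higher, 1 of 19 (5.26%), where 3.15% of all genes kept were that much higher, and no cytosolic member was 1.5-fold lower, where 3.49% of all genes were. A 95% counting interval wholly above 1 was found for 13 cytosolic genes and wholly below 1 for 1, HARS1, against 24.0% and 20.5% of all genes. Well-counted genes such as these have narrow intervals, so those shares also depend on depth.

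Among the 13 cytosolic members listed as ATF4 targets from general knowledge, 12 were above control-CM in PVAT-CM (92.3%, against 53.1% of all genes kept). The 13 had a median log2 ratio of 0.41 and a summed level 1.28 times control (1.26 to 1.30). The 6 other cytosolic genes (FARSA, FARSB, HARS1, KARS1, QARS1 and RARS1) had a median of 0.08 and a summed level 1.03 times control (1.00 to 1.07). In PPAT-CM against control-CM the medians were 0.14 and 0.09, and each summed level was 1.08 times control. The list was drawn up with earlier results of these libraries known, and the difference between the lists was not tested.

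NARS1, the asparagine enzyme (ENSG00000134440, chr18:57600656-57622213 in GRCh38, the build of all positions here), had 5816 counts under control-CM, 7356 under PVAT-CM and 7750 under PPAT-CM, or 383, 516 and 421 scaled CPM. PVAT-CM was the highest library after scaling, 1.35 times control (1.30 to 1.39), and PPAT-CM was 1.22-fold lower than PVAT-CM (1.19 to 1.26). GARS1, the glycine enzyme, had 2677, 3761 and 4208 counts and was 1.49 times control in PVAT-CM (1.42 to 1.57) and 1.30 times in PPAT-CM. EPRS1 had 2179, 2997 and 3297 counts and was 1.46 times control in PVAT-CM (1.38 to 1.55) and 1.25 times in PPAT-CM. For these 3 genes PVAT-CM and PPAT-CM lay above control-CM and PVAT-CM was highest. IARS1 (isoleucine) was 1.32 times control in PVAT-CM and 1.06 times in PPAT-CM, and TARS1 (threonine) was 1.21 and 1.06 times control. CARS1, the cysteine enzyme (ENSG00000110619, chr11:3000922-3057613), had 1244, 1594 and 1847 counts and was 1.36 times control in PVAT-CM (1.26 to 1.47) and 1.22 times in PPAT-CM (1.14 to 1.32).

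AARS1, the alanine enzyme (ENSG00000090861, chr16:70252295-70289543), gave the widest contrast between PVAT-CM and PPAT-CM among the synthetases. It had 6080 counts under control-CM, 6924 under PVAT-CM and 5652 under PPAT-CM, or 401, 486 and 307 scaled CPM. AARS1 was 1.21 times control in PVAT-CM (1.17 to 1.25), 1.30-fold lower than control in PPAT-CM (1.26 to 1.35) and 1.58-fold lower under PPAT-CM than under PVAT-CM (1.53 to 1.64). Scaled by total counts the last ratio was 0.682, short of the 1.5-fold line. MARS1, the methionine enzyme, was placed the same way, with 4049, 4350 and 4371 counts, 1.14 times control in PVAT-CM and 1.12-fold lower than control in PPAT-CM (1.08 to 1.17). These were the only 2 cytosolic genes whose PPAT-CM level lay below control-CM with the counting interval wholly below 1, although MARS1 was 1.05 times control when scaled by total counts. MARS1 shares 355 exonic bases on the opposite strand with DDIT3, a stress-response transcription factor with 1521, 1801 and 1201 counts that was 1.93-fold lower under PPAT-CM than under PVAT-CM. No source used here gives the strand setting of the counting, and reads of the shared bases cannot be told apart.

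In PPAT-CM against PVAT-CM, AARS1 was the only synthetase past 1.5-fold, lower in 1 of 19 cytosolic genes, where 6.07% of all genes kept were that much lower and 8.56% that much higher. Ratios above 1 were found for 7 of 19 cytosolic genes (36.8%, against 52.3% of all genes), with a median log2 ratio of -0.15 against 0.02. The counting interval lay below 1 for 11 cytosolic genes and above 1 for 5, against 25.6% and 30.7% of all genes. This comparison and the one of PVAT-CM against control-CM share the PVAT-CM library.

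Promoter sequence was examined for sites of ATF4 and of interferon signalling. Windows of 250 bases before to 50 bases after the annotated start were taken from RefSeq (GRCh38.p14) and matched 30 of the 35 genes with 39 windows, VARS1, LARS1, YARS1, AARS2 and VARS2 having none in the table. The C/EBP-ATF response element (CARE), the composite site that ATF4 dimers bind, was searched as TGATGNAAN on both strands. It occurred in 7 of 16 cytosolic genes and in 1 of 14 mitochondrial genes (YARS2), where 4.45% of all 27305 genes with a window held it. The 7 were AARS1, CARS1, GARS1, IARS1, MARS1, NARS1 and TARS1, which are 7 of the 10 listed ATF4 targets with a window, and 0 of the 6 other cytosolic genes had it. They lay at chr16:70289676-70289704 (minus strand, AARS1), chr11:3057408-3057436 (minus, CARS1), chr7:30594834-30594862 (plus, GARS1), chr9:92293693-92293721 (minus, IARS1), chr12:57488053-57488081 (plus, MARS1), chr18:57621804-57621832 (minus, NARS1) and chr5:33440956-33440984 (plus, TARS1). The match began 188 bases before an annotated start in AARS1, 34 before in GARS1, 14 before in IARS1, 5 before in MARS1, 3 before in CARS1, 2 after in TARS1 and 15 after in NARS1. The fixed letters of the motif are alike in all 7 because the search required them. The stretches are printed on the gene's own strand, with the matching bases in capitals (a match on the opposite strand reads NTTNCATCA).
AARS1: ttttctcgcaGTTGCATCAgccaagttag
CARS1: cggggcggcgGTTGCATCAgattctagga
GARS1: ttacgcggcgATTTCATCAtgctccgagc
IARS1: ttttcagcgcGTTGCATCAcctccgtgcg
MARS1: gccggttccgGTTGCATCAgcgagggatt
NARS1: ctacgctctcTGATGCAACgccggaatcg
TARS1: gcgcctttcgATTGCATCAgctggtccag

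The 7 cytosolic genes with the element were all above control-CM in PVAT-CM, with log2 ratios from 0.19 to 0.58 and a median of 0.40. All 7 were lower under PPAT-CM than under PVAT-CM, with log2 ratios from -0.66 to -0.15 and a median of -0.29. In PPAT-CM against control-CM they were divided, 5 above and 2 below, with a median of 0.08. The 9 cytosolic genes with a window but no match had medians of 0.12 in PVAT-CM against control-CM (7 of 9 above), 0.11 in PPAT-CM against PVAT-CM (5 of 9 above) and 0.15 in PPAT-CM against control-CM (8 of 9 above). Of these 9, EPRS1, SARS1 and WARS1 are listed ATF4 targets too, with log2 ratios of 0.55, 0.63 and 0.44 in PVAT-CM against control-CM. Of all genes kept, 53.1% had a ratio above 1 in PVAT-CM against control-CM, 52.6% in PPAT-CM against control-CM and 52.3% in PPAT-CM against PVAT-CM. A match shows that the letters are present, not that a factor is bound there, and the difference between the 2 sets of genes was not tested.

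**Figure D2:**
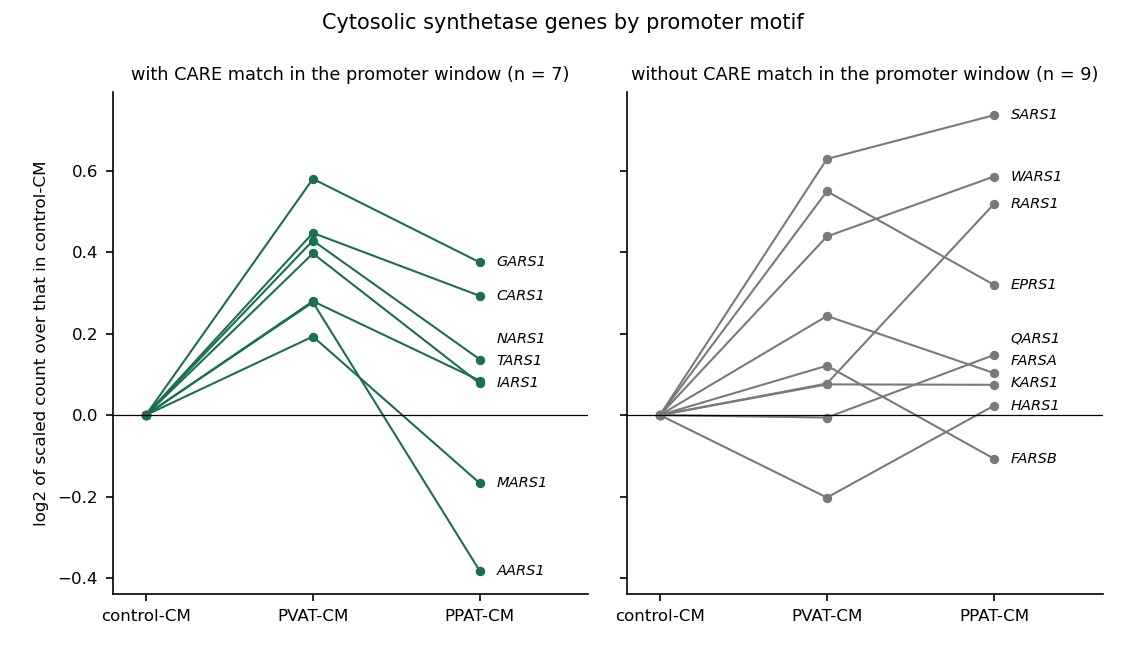
Log2 of the scaled count over control-CM for each cytosolic synthetase in the 3 media, in the 7 genes with a CARE match and the 9 without one. Each line is 1 gene, and all 7 lines with a match go up from control-CM to PVAT-CM and down from PVAT-CM to PPAT-CM.

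PPAT-CM against control-CM gave the wider spread of ratios among all genes, and the synthetases did not stand out by size. At least 1.5-fold higher were SARS1 and WARS1, 2 of 19 cytosolic genes (10.5%), and FARS2, 1 of 15 mitochondrial genes (6.67%), where 12.0% of all genes kept were that much higher. No synthetase was 1.5-fold lower, where 8.71% of all genes were. Ratios above 1 were found for 16 of 19 cytosolic genes (84.2%) and 10 of 15 mitochondrial genes (66.7%), against 52.6% of all genes. The median log2 ratio was 0.10 in the cytosolic and 0.26 in the mitochondrial set, against 0.03 over all genes. The counting interval lay above 1 for 11 cytosolic and 8 mitochondrial genes and below 1 for 2 and 1, against 35% and 29% of all genes. No synthetase reached 2-fold in any of the 3 comparisons, where 3.93% of all genes were that much higher and 2.74% lower in this one, 0.465% and 0.441% in PVAT-CM against control-CM, and 2.45% and 1.47% in PPAT-CM against PVAT-CM.

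SARS1, the cytosolic serine enzyme (ENSG00000031698, chr1:109213918-109238169), had 1465 counts under control-CM, 2129 under PVAT-CM and 2958 under PPAT-CM, or 96.6, 149 and 161 scaled CPM. It was high in PVAT-CM and in PPAT-CM, 1.55 times control in PVAT-CM (1.45 to 1.65) and 1.67 times in PPAT-CM (1.56 to 1.77), and these 2 libraries lay close together at a ratio of 1.08 (1.02 to 1.14). With totals that leave out the mitochondrial chromosome, SARS1 was 1.49 times control in PVAT-CM, short of the line. YARS1, the tyrosine enzyme, was likewise high in both, with 1702, 2123 and 2840 counts, 1.33 times control in PVAT-CM and 1.38 times in PPAT-CM (1.30 to 1.46).

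WARS1, the tryptophan enzyme (ENSG00000140105, chr14:100333788-100376805), had 1045 counts under control-CM, 1331 under PVAT-CM and 1901 under PPAT-CM, or 68.9, 93.4 and 103 scaled CPM. Control-CM was the lowest library, PVAT-CM was 1.36 times control (1.25 to 1.47) and PPAT-CM 1.5 times control (1.39 to 1.62), just past the 1.5-fold line. It was short of the line, at 1.45 and 1.43 times control, with totals without the mitochondrial chromosome and with upper quartile factors. Its promoter windows held a match to the interferon-stimulated response element (searched as GAAANNGAAA on both strands). It occurred in 4.38% of all genes with a window, and among the members also in EARS2. The WARS1 stretch lies at chr14:100375383-100375412 (minus strand, GRCh38.p14), 55 bases before a start, and is shown with the match in capitals because WARS1 is a known interferon-gamma target.
WARS1 response element: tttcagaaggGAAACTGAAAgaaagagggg

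Genes listed as interferon-gamma targets were set beside WARS1. TAP1, a subunit of the antigen peptide transporter, had 46, 84 and 287 counts and was 5.15 times control in PPAT-CM (3.76 to 7.19). GBP2, a guanylate-binding protein, had 59, 39 and 488 counts and was 6.82 times control (5.20 to 9.10). The WARS1 ratio was smaller than those of TAP1 and GBP2, and WARS1 was above control-CM in PVAT-CM, where GBP2 was not. The list was made with earlier results of these libraries known.

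RARS1, the arginine enzyme (ENSG00000113643, chr5:168486445-168519299), had 731, 725 and 1269 counts under control-CM, PVAT-CM and PPAT-CM. Here PPAT-CM stood apart, 1.43 times control (1.31 to 1.57) and 1.36 times PVAT-CM (1.24 to 1.49), while PVAT-CM was 1.06 times control with an interval that included 1 (0.951 to 1.17). HARS1, the histidine enzyme (ENSG00000170445, chr5:140673904-140691862), had 1393, 1138 and 1716 counts and was lowest in PVAT-CM, 1.15-fold below control (1.06 to 1.25). Its PPAT-CM level was 1.02 times control (0.946 to 1.09). KARS1 (lysine), VARS1 (valine) and QARS1 (glutamine) stayed between 0.985 and 1.11 times control in PVAT-CM and PPAT-CM. LARS1 (leucine), FARSA and FARSB were 1.12, 1.18 and 1.09 times control in PVAT-CM and 1.01, 1.07 and 0.929 times control in PPAT-CM.

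**Figure D3:**
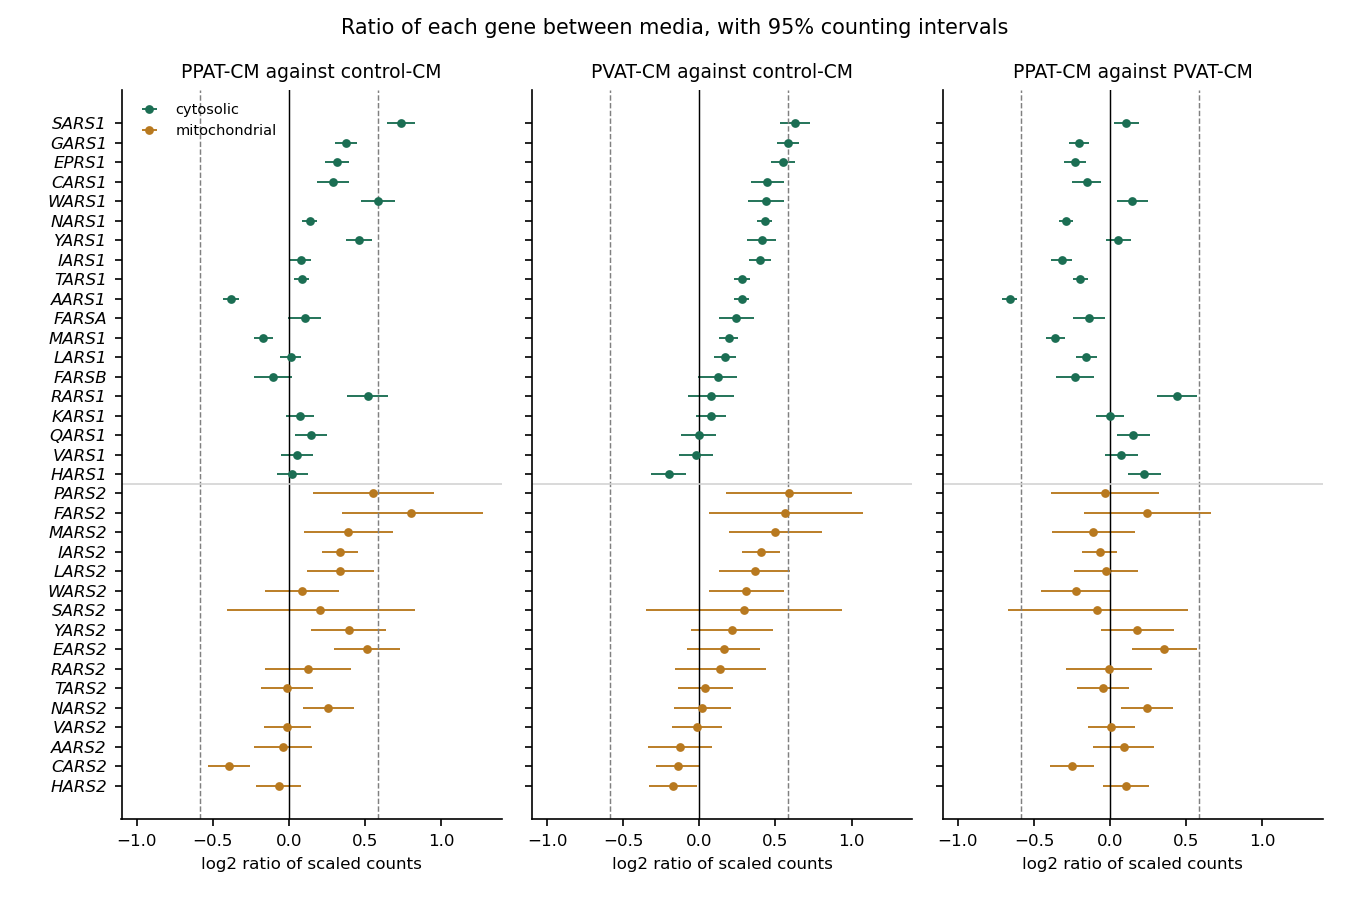
Log2 ratio of each synthetase in PPAT-CM against control-CM, PVAT-CM against control-CM and PPAT-CM against PVAT-CM, with 95% counting intervals and dashed lines at 1.5-fold. SARS1, WARS1 and FARS2 lie past the line in the first comparison, SARS1 in the second and AARS1, on the lower side, in the third.

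Mitochondrial synthetases were counted less deeply, and their intervals were correspondingly wide. FARS2, the mitochondrial phenylalanine enzyme (ENSG00000145982, chr6:5261044-5829192), had 59 counts under control-CM, 82 under PVAT-CM and 125 under PPAT-CM, or 3.89, 5.75 and 6.80 scaled CPM. It was 1.75 times control in PPAT-CM (1.27 to 2.42) and 1.48 times in PVAT-CM (1.05 to 2.1), and PPAT-CM was 1.18 times PVAT-CM with an interval that included 1 (0.887 to 1.58). PARS2, the proline enzyme (ENSG00000162396, chr1:54756898-54764514), had 85, 120 and 151 counts and was 1.47 times control in PPAT-CM (1.12 to 1.93) and 1.5 times in PVAT-CM (1.13 to 2.01). With the pseudocount of 0.5 its log2 ratio in PVAT-CM was 0.58, just short of the 1.5-fold line, so no mitochondrial gene was called higher or lower there.

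EARS2, the glutamate enzyme (ENSG00000103356, chr16:23522014-23557731), had 280, 294 and 485 counts and was highest in PPAT-CM, 1.43 times control (1.23 to 1.66) and 1.28 times PVAT-CM (1.10 to 1.48). It shares 370 exonic bases on the opposite strand with UBFD1, which had 978, 1021 and 1357 counts. NARS2 (asparagine) had 489, 466 and 710 counts and was likewise highest in PPAT-CM, 1.20 times control and 1.18 times PVAT-CM (1.05 to 1.33). IARS2, the isoleucine enzyme (ENSG00000067704, chr1:220094102-220148041), had 943, 1174 and 1443 counts and was above control-CM in both, 1.32 times in PVAT-CM (1.21 to 1.44) and 1.26 times in PPAT-CM (1.16 to 1.37). MARS2 (methionine) and LARS2 (leucine) were also above control-CM in both, at 1.41 and 1.29 times control in PVAT-CM and 1.31 and 1.26 times in PPAT-CM. Between PPAT-CM and PVAT-CM the interval included 1 for IARS2 (0.882 to 1.03), MARS2 (0.768 to 1.12) and LARS2 (0.850 to 1.14).

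CARS2, the mitochondrial cysteine enzyme (ENSG00000134905, chr13:110641412-110713603), was the one mitochondrial gene whose interval lay below control in PPAT-CM. It had 877 counts under control-CM, 746 under PVAT-CM and 810 under PPAT-CM, or 57.8, 52.3 and 44.1 scaled CPM, and was 1.31-fold lower than control in PPAT-CM (1.19 to 1.45) and 1.19-fold lower than PVAT-CM (1.07 to 1.31). HARS2 (ENSG00000112855, chr5:140691426-140699318) had 719, 600 and 832 counts and was lowest in PVAT-CM, 1.13-fold below control (1.01 to 1.26), as its neighbour HARS1 was. The 2 genes share 437 exonic bases on opposite strands, 11.7% of the exons of HARS2 and 5.56% of those of HARS1. WARS2 (tryptophan) was 1.24 times control in PVAT-CM and 1.06 times in PPAT-CM. TARS2 (threonine), VARS2 (valine), AARS2 (alanine) and RARS2 (arginine) had intervals that included 1 in all 3 comparisons. Over the 15 genes the median log2 ratio in PVAT-CM against control-CM was 0.16. Ratios above 1 were found for 11 of 15 (73.3%, against 53.1% of all genes kept). In PPAT-CM against PVAT-CM the median was -0.01, with 7 of 15 above 1 (46.7%, against 52.3% of all genes). In PVAT-CM against control-CM the counting interval lay above 1 for 6 genes and below 1 for 2, against 24.0% and 20.5% of all genes. In PPAT-CM against PVAT-CM it lay above 1 for 2 (EARS2 and NARS2) and below 1 for 1 (CARS2), against 30.7% and 25.6%.

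Transcripts of the mitochondrial chromosome, which the mitochondrial synthetases serve to translate, were placed otherwise. All 13 protein-coding genes of that chromosome were at least 1.5-fold lower in PPAT-CM than in control-CM, where 8.71% of all genes kept were. In PVAT-CM 12 of them were that much lower, where 3.49% of all genes were. The median log2 ratio was -1.29 in PPAT-CM and -0.70 in PVAT-CM. Their summed counts were 3572620 under control-CM, 2035415 under PVAT-CM and 1763551 under PPAT-CM. The nuclear-encoded mitochondrial synthetases had medians above 0 in both media. Whether the mitochondrial RNA content bears on the synthetase ratios was not tested.

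Levels between genes were compared per kilobase of merged exons. The cytosolic median was 25.2 scaled CPM per kilobase under control-CM, 30.0 under PVAT-CM and 27.6 under PPAT-CM, and the mitochondrial median was 4.93, 5.14 and 4.84. NARS1 was the highest of all members, at 93.8, 126 and 103 scaled CPM per kilobase, although by the length of the longest coding transcript TARS1 was the highest cytosolic gene, at 145, 176 and 154. IARS2 was the highest mitochondrial gene, at 14.9, 19.8 and 18.8, although by the other length CARS2 was, at 30.8, 27.8 and 23.4. FARS2 in control-CM (0.805) and SARS2 in PVAT-CM (0.999) and PPAT-CM (0.943) were the lowest, and by the other length SARS2 was the lowest in every library (1.62, 1.98 and 1.87). SARS2 shares 46.2% of its exonic bases with another gene on the same strand. How reads of shared bases were counted is not given, so the SARS2 level may be too low, which was not tested.

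EPRS1 and FARS2 each enter 2 of the 17 pairs of genes that serve the same amino acid. The cytosolic gene had the higher level per kilobase of merged exons in 16 of them in each library. The median ratio of cytosolic to mitochondrial level was 8.18 under control-CM, 8.90 under PVAT-CM and 7.37 under PPAT-CM. Histidine was the exception, with HARS1 at 0.922, 0.902 and 0.981 times the level of HARS2, but with the length of the longest coding transcript in place of merged exons that ratio was 1.96, 1.92 and 2.09. By that length the CARS1 level was 0.966, 1.46 and 1.55 times the CARS2 level. The widest ratios were 40.1 for FARSA over FARS2 in control-CM, and 39.0 and 44.5 for SARS1 over SARS2 in PVAT-CM and PPAT-CM, where the SARS2 counts are few. By the longest coding transcript FARSA over FARS2 in control-CM was 16.6, and SARS1 over SARS2 was the widest ratio in every library, at 31.7, 40.1 and 45.7. The ratios over SARS2 carry the limit that 46.2% of its exonic bases are shared on the same strand with another gene. Whether reads there were lost to SARS2 was not tested. By merged exons CARS1 over CARS2 was 1.48 under control-CM, 2.23 under PVAT-CM and 2.38 under PPAT-CM. For alanine the ratio of AARS1 to AARS2 was 14.2, 18.8 and 11.2.

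Across the 16 pairs with both genes kept, the cytosolic log2 ratio exceeded the mitochondrial one in 7 pairs in PPAT-CM against control-CM, in 7 in PVAT-CM against control-CM and in 5 in PPAT-CM against PVAT-CM. The median difference was -0.16, -0.01 and -0.17. The mitochondrial gene had the larger ratio in the remaining 9, 9 and 11 pairs.

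**Figure D4:**
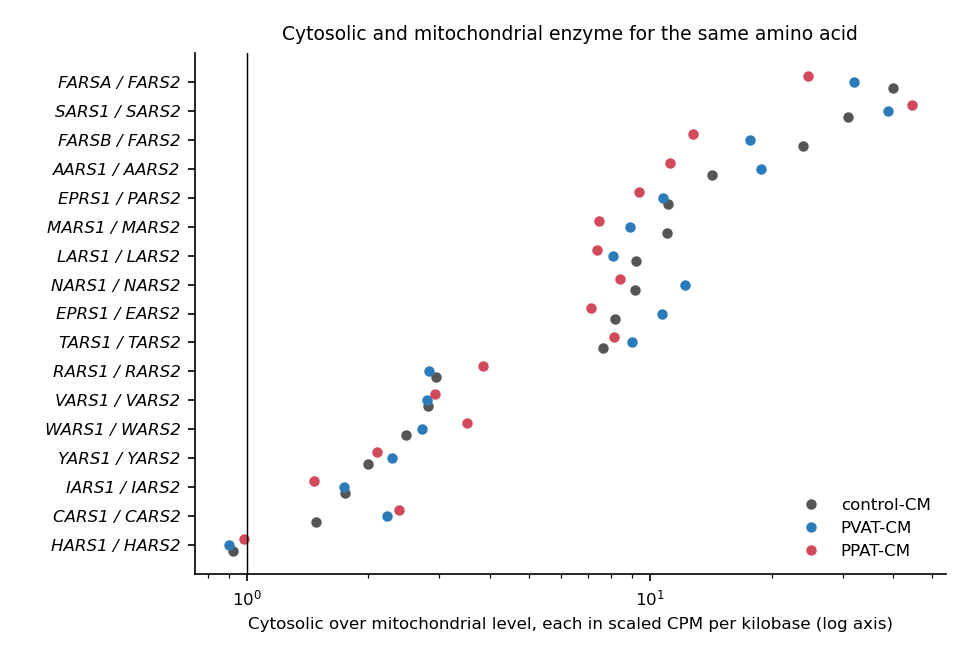
Ratio of cytosolic to mitochondrial level per kilobase of exon (log axis) for each amino acid served by a pair of genes, in the 3 libraries. All pairs but histidine lie above 1 in every library, and the median ratio is 8.18 under control-CM, 8.90 under PVAT-CM and 7.37 under PPAT-CM.

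The cytosolic genes were also grouped by structure. The 7 members of the multisynthetase complex, the particle that holds several cytosolic synthetases together, had a median log2 ratio of 0.17 in PVAT-CM and 0.08 in PPAT-CM, and the 12 outside it 0.34 and 0.12. Cytosolic enzymes of class I, whose catalytic domain is a Rossmann fold, had medians of 0.19 and 0.15, and those of class II, which have an antiparallel beta-sheet fold, 0.28 and 0.08 (9 genes each). EPRS1, which has both domains, was left out of the 2 classes, and its log2 ratios were 0.55 and 0.32. In PPAT-CM against PVAT-CM the medians were 0.05 for class I and -0.19 for class II. They were -0.16 inside the complex and -0.15 outside it. In that comparison the listed ATF4 targets had a median of -0.19 and the other cytosolic genes 0.08. Of the 3 scaffold proteins of the complex, AIMP2 had 351, 502 and 687 counts, 1.52 times control in PVAT-CM (1.32 to 1.75) and 1.61 times in PPAT-CM (1.42 to 1.84), whereas EEF1E1 had 273, 189 and 268.

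Other genes of the translation pathway and of the stress response were read from lists. These lists were drawn up with earlier results of these libraries known, and none was tested against all genes. ATF4 itself had 12841, 15707 and 16968 counts and was 1.30 times control in PVAT-CM (1.27 to 1.33) and 1.09 times in PPAT-CM, so it too was highest in PVAT-CM after scaling. Among 17 ATF4-linked genes of amino acid supply, transport and stress response, 17 were above control-CM in PVAT-CM (100%, against 53.1% of all genes). Their median log2 ratio was 0.45. Of the 17, 6 were at least 1.5-fold higher (35.3%, against 3.15% of all genes). In PPAT-CM the median was 0.20, with 4 at least 1.5-fold higher (23.5%, against 12.0% of all genes) and 1 lower (against 8.71%). SLC7A11, the cystine transporter, had 744, 1536 and 1330 counts and was 2.20 times control in PVAT-CM (2.01 to 2.40). SLC7A5, a transporter of large neutral amino acids, had 129, 190 and 554 counts and was 3.54 times control in PPAT-CM (2.92 to 4.32), the highest library for it.

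Of the 5 cytosolic elongation factors kept of 6, 4 were above control-CM under PVAT-CM and 4 under PPAT-CM, with medians of 0.21 and 0.41. That is 80% in each, against 53.1% and 52.6% of all genes kept. EEF1B2, an exchange factor subunit, was 1.60 times control (1.51 to 1.70) and 1.79 times control (1.69 to 1.89), whereas EEF1A2, a carrier of charged tRNA, was 1.09 and 0.831 times control. The 7 mitochondrial translation factors kept of 8 had medians of 0.05 and 0.31, with GFM1, a mitochondrial elongation factor, at 605, 756 and 1337 counts and 1.82 times control in PPAT-CM (1.65 to 2.01). QRSL1, GATB and GATC, whose products make mitochondrial glutaminyl-tRNA by transamidation, and MTFMT, which formylates methionyl-tRNA, were all above 1. That is 100% in both media, against 53.1% and 52.6% of all genes, with medians of 0.11 and 0.24 over the 4 genes. Of the 8 editing, export and tRNA-processing genes, 5 were below and 3 above control-CM in each medium (37.5% above, against 53.1% and 52.6% of all genes). Their medians were -0.16 and -0.13, although the summed level was 1.08 times control in PVAT-CM. AARSD1, an alanyl-tRNA editing enzyme, had 112, 67 and 95 counts, 1.57-fold below control in PVAT-CM (1.15 to 2.16). The 8 stress-sensing genes had medians of 0.08 and 0.13, and EIF2AK3, a kinase that senses stress of the endoplasmic reticulum, was 1.61-fold lower than control in PPAT-CM (1.37 to 1.91). Of all genes kept, 3.15% were at least 1.5-fold higher in PVAT-CM and 12.0% in PPAT-CM, and 3.49% and 8.71% that much lower.

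**Figure D5:**
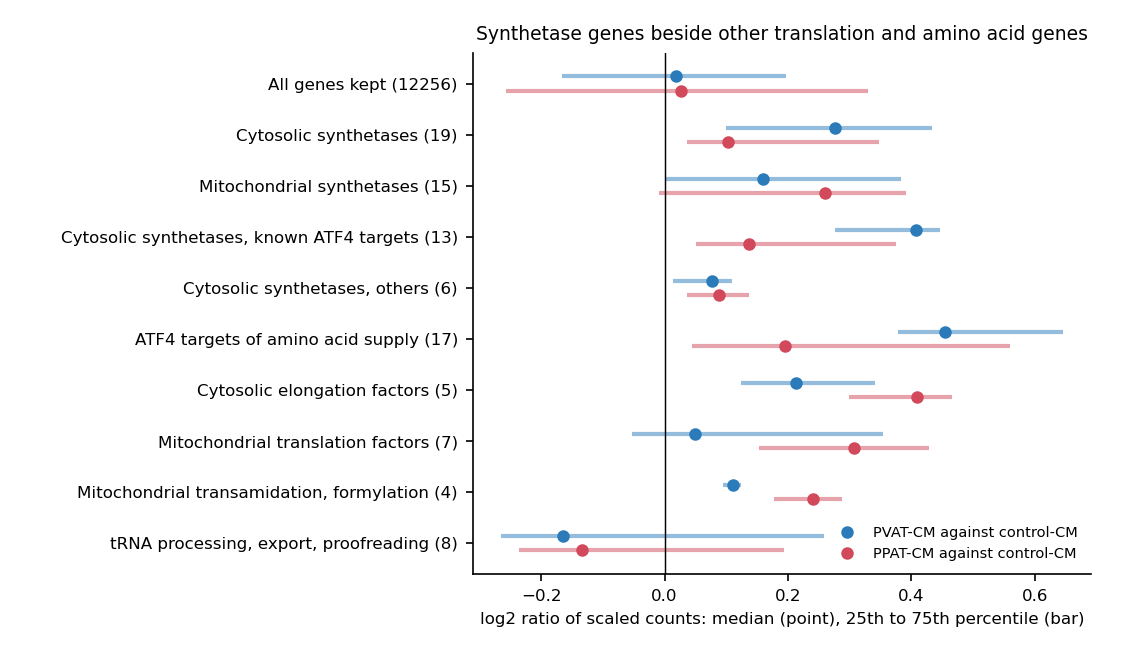
Median log2 ratio (point) and 25th to 75th percentile range (line) of each gene list in PVAT-CM and in PPAT-CM against control-CM. The cytosolic synthetases have medians of 0.28 and 0.10 and the mitochondrial synthetases 0.16 and 0.26. The list labelled as ATF4 targets of amino acid supply also holds transport and stress-response genes.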

How the data were processed

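Raw read counts per gene were deposited by the authors as 1 table for the 3 libraries. Per the submitters' processing notes, FastQC, Trimmomatic, HISAT2, featureCounts, edgeR and GRCh38 were used, and no source used here gives their versions, the annotation or the strand setting. Members, gene lists and the rule for named genes were chosen with earlier results of these data known. By that rule every synthetase is named, with its counts where it was past 1.5-fold or an extreme of its set, and up to 2 genes with the largest ratios are named from each other list. The other synthetases, ATF4, EEF1E1, EEF1A2, PLIN1, the transamidation genes and the genes beside synthetases were described in more detail after their values were seen. Counts were scaled by edgeR 4.0.16 TMM factors (R 4.3.3). Ratios are log2 of scaled counts plus 0.5 among genes with a mean of at least 50 counts, and a gene was called at 1.5-fold. No test was made, because 1 library per medium leaves no residual degrees of freedom. Intervals are 95% exact, from a binomial split of the 2 counts (Clopper-Pearson) or Poisson for levels, and reads carried no molecular identifiers. Positions and exon lengths are from GENCODE release 29 (GRCh38), matched by Ensembl ID, and promoters from RefSeq. Alternatives were DESeq2 1.42.0 size factors, other scalings, filters and thresholds. The calculations were checked on simulated data. Part of the interferon-gamma list is not reported here.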

Additional observations from a re-analysis of the deposited data

How the results depend on the processing

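Scaling by total counts, which the mitochondrial chromosome enters, moved the median log2 ratio of all genes by 0.24 in PPAT-CM against control-CM, 0.13 in PVAT-CM against control-CM and 0.11 in PPAT-CM against PVAT-CM. In the first of these it put 24.1% of all genes at least 1.5-fold higher and 4.39% lower, against 12.0% and 8.71%. In PVAT-CM against control-CM it put 6.67% higher and 1.79% lower, against 3.15% and 3.49%, and totals without the mitochondrial chromosome put 2.35% and 4.53%. In PPAT-CM against PVAT-CM it put 12.0% and 4.18%, against 8.56% and 6.07%. Upper quartile factors put 9.74% and 11% in PPAT-CM against control-CM. With total counts 5 cytosolic and 5 mitochondrial synthetases were 1.5-fold higher in PPAT-CM than in control-CM (medians 0.34 and 0.50), 3 and 3 in PVAT-CM (cytosolic median 0.41), and 0 cytosolic genes were lower under PPAT-CM than under PVAT-CM (median -0.047). With total counts the side of 1 turned for 6, 4 and 7 synthetases in PPAT-CM against control-CM, PVAT-CM against control-CM and PPAT-CM against PVAT-CM, and for at most 3 under any other scaling. The 7 cytosolic genes with the CARE kept their side under each scaling in PVAT-CM against control-CM and in PPAT-CM against PVAT-CM. The cytosolic count for PPAT-CM against control-CM was 1 in place of 2 with totals without the mitochondrial chromosome, with upper quartile factors or with a pseudocount of 5, WARS1 being at 1.45 and 1.43 times control under the first 2. For PVAT-CM against control-CM, DESeq2 size factors gave 2 cytosolic and 1 mitochondrial gene, and totals without the mitochondrial chromosome gave 0 cytosolic genes, with SARS1 at 1.49. A minimum mean of 200 counts left 0 mitochondrial genes higher in PPAT-CM, and a 2-fold line left 0 in every set. Of the counts and medians of the 2 sets under all settings, together with the pair counts by the other gene length, 166 stayed within the limits set and 20 moved. The cause was not tested. The mitochondrial median in PPAT-CM against PVAT-CM, -0.0079, was near 0 and changed sign with total counts (0.10), with totals without the mitochondrial chromosome (0.00085) and as a mean (0.030). Gene lengths from the longest coding transcript were tried after the data were seen. No paired analysis was possible because each medium had 1 library, and no library could be left out. Depth limits FARS2, PARS2 and SARS2 most.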

Other observations

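Some synthetase genes start beside a gene on the opposite strand. DDX19B, an RNA helicase gene whose start lies 120 bases from that of AARS1, had 302, 266 and 228 counts under control-CM, PVAT-CM and PPAT-CM. Its log2 ratio in PPAT-CM against PVAT-CM was -0.59, beside -0.66 for AARS1, and in PVAT-CM against control-CM it was -0.09, beside 0.28 for AARS1. LYRM4, which encodes a protein of iron-sulfur cluster assembly and starts 105 bases from FARS2, had 294, 299 and 438 counts and a log2 ratio of 0.30 in PPAT-CM against control-CM, beside 0.80 for FARS2. ORC3, a subunit of the origin recognition complex that starts 64 bases from RARS2, had 276, 308 and 392 counts and log2 ratios of 0.23 and 0.25 in PPAT-CM and PVAT-CM against control-CM, beside 0.13 and 0.14 for RARS2. GARS1-DT, a divergent transcript at GARS1, had 1605, 1233 and 1813 counts and log2 ratios of -0.10 and -0.29 in PPAT-CM and PVAT-CM against control-CM, beside 0.37 and 0.58 for GARS1. TARS1-DT, whose start lies 77 bases from TARS1, had 77, 90 and 72 counts and log2 ratios of -0.37 and 0.31, beside 0.08 and 0.28 for TARS1.

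Counts at copies named after the synthetases were few. The table held 14 pseudogenes named after the synthetases, 13 of them at 0 in all 3 libraries, and the highest count of any was 3. Exonic bases were shared with another annotated gene by 19 of the 35 members. VARS2 shares 1858 bases, 22% of its exons, with GTF2H4 on the same strand, and GTF2H4 had 10, 14 and 9 counts. SARS2 shares 1492 bases, 46.2% of its exons, on the same strand with ENSG00000269547, which had 0 counts in every library, and 349 bases on the opposite strand with MRPS12, which had 463, 503 and 988 counts.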
